A study of Homo sapiens with 16 samples.

Results

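The 10 genes described here code for proteins that coat fat stores, steer fuel choice towards fatty acids, burn fatty acids in mitochondria or act on lipids outside the cell. They are PLIN2, PLIN3, PLIN4, HILPDA, PDK4, CPT1A, ACADVL, HADHA, ANGPTL4 and LIPG, taken by name from a table of 58735 genes, and all 10 were among the 17647 genes with enough reads to be tested. They were picked with large rises of PDK4 and PLIN2 after drug treatment in view, so the values of those 2 genes with the drug, also between the lines, are given as a description with no test. The other 8 were chosen by function, also with earlier results of these data known.

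Poly(A) RNA was sequenced in 4 groups of 4 libraries. They were MDA-MB-231 cells with YES1i, MDA-MB-231 cells with DMSO, SUM159PT cells with YES1i and SUM159PT cells with DMSO, all labelled as wild type. Both are established lines of human triple-negative breast cancer, and YES1i (CH6953755) is a small-molecule inhibitor of YES1, a kinase of the Src family. The dose was 8 uM, DMSO was the solvent, and cells were collected after 48 h. MDA-MB-231 cells grew in RPMI and SUM159PT cells in Ham's F12, so line and medium cannot be told apart. Per the series text the libraries within a group are technical replicates, so every p-value given measures only how much such libraries vary.

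Cells keep surplus fatty acids as triglyceride in lipid droplets, whose surface carries perilipins. Fatty acids set free are bound to coenzyme A, passed into mitochondria by the carnitine shuttle and shortened there by beta-oxidation. Pyruvate dehydrogenase feeds glucose carbon into the same end product, and its kinases turn it off when fatty acids are used. The nuclear receptors of the PPAR family sense fatty acids and switch on many of these genes, among them PDK4, PLIN2, CPT1A and ANGPTL4.

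Total counts per library were 15876171 to 36261542. Levels are given as CPM, counts per 1000000 scaled with TMM factors, and a count of 0 allows a level of up to 0.0859 to 0.194 CPM at 3 counts, depending on the library, for counting error only. In these bulk libraries fewer cells that express a gene and less RNA per cell cannot be told apart. ESR1 averaged at most 0.608 CPM and PGR was at or near 0 in all groups. In MDA-MB-231, 5 markers of mesenchymal-type breast cancer lines (VIM, CD44, AXL, ZEB1, EGFR) summed to 2627 to 2661 CPM with YES1i against 3273 to 3310 CPM with DMSO. In SUM159PT they summed to 4189 to 4271 CPM with YES1i against 3451 to 3684 CPM with DMSO. VIM, AXL and EGFR averaged lower with YES1i in MDA-MB-231 and CD44 and ZEB1 higher, while in SUM159PT AXL alone averaged lower. The 6 epithelial markers, led by KRT8 in all groups and with CDH1 at 0 in SUM159PT, summed to 1131 to 1264 CPM with YES1i against 1431 to 1544 CPM with DMSO in MDA-MB-231, and to 423 to 489 CPM with YES1i against 522 to 565 CPM with DMSO in SUM159PT. In MDA-MB-231 these markers did not move together. KRT8 averaged 555.6 CPM with YES1i against 810.2 CPM with DMSO there, and KRT18 255.1 against 377.5 CPM. CLDN4 went the other way, at 258.5 CPM with YES1i against 180.5 CPM with DMSO. EPCAM (12.05 against 11.84 CPM) and ERBB2 (112.4 against 107.5 CPM) barely differed, and CDH1 averaged 2.153 against 3.065 CPM. Mitochondrial ribosomal RNA took 1.29 to 1.39% of counts with YES1i against 0.619 to 0.678% with DMSO in MDA-MB-231. In SUM159PT it took 1.28 to 1.49% with YES1i against 0.658 to 0.810% with DMSO. Its part in the treatment differences below was not tested.

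PLIN2 and PDK4 were both higher with YES1i, yet PLIN2 was a gene of 1 line and PDK4 of both. PLIN2 (also called adipophilin) is the perilipin that sits on lipid droplets of most tissues and is broken down when no droplet holds it. It lies at chr9:19108375-19149290 on the minus strand (GRCh38). MDA-MB-231 libraries with YES1i held 151, 161, 162 and 172 CPM, replicates 1 to 4, against 50.8, 47.8, 49.4 and 49.6 CPM with DMSO. All 4 treated libraries stood above all 4 controls, and the fitted log2 fold change was 1.71 (SE 0.10), or 3.27-fold. SUM159PT libraries had only 4, 26, 6 and 24 PLIN2 reads with YES1i against 5, 0, 4 and 0 reads with DMSO, or 0.238, 1.21, 0.332 and 1.04 CPM against 0.143, 0, 0.184 and 0 CPM. The treated SUM159PT libraries were above the controls, 2 of them only slightly, and the controls were at or near the limit that a count of 0 allows. A fitted log2 fold change of 2.83 (SE 0.57) in SUM159PT rests on those few reads.

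PDK4, pyruvate dehydrogenase kinase 4, switches off the entry of glucose carbon into the mitochondrial acetyl-CoA pool and is a gene of fasting. It lies at chr7:95583499-95596491 on the minus strand. MDA-MB-231 libraries held 26.2, 28.7, 28 and 27.2 CPM with YES1i against 3.25, 2.45, 3.23 and 3.56 CPM with DMSO. SUM159PT libraries held 52.6, 53.5, 51.6 and 46.3 CPM with YES1i against 5.90, 5.16, 4.59 and 7.11 CPM with DMSO. No treated library of either line came near its controls. The fitted log2 fold changes were 3.13 (SE 0.11) in MDA-MB-231 and 3.16 (SE 0.10) in SUM159PT, that is 8.74-fold in MDA-MB-231 and 8.96-fold in SUM159PT. The change in MDA-MB-231 minus that in SUM159PT was -0.036 (SE 0.16), smaller than its own error.

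**Figure D1:**
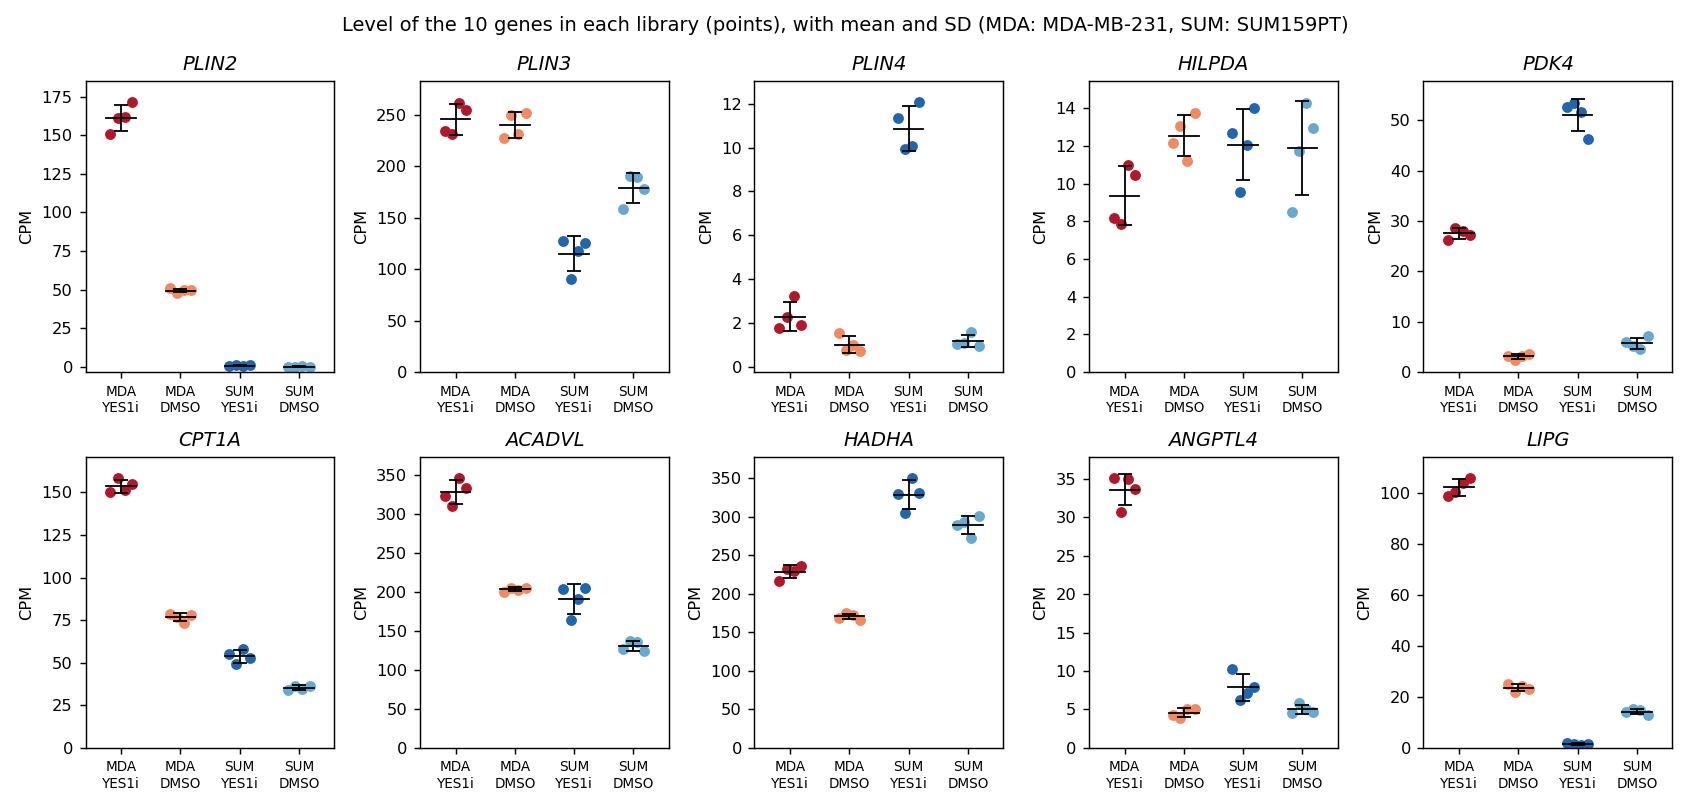
Level of each gene in CPM in every library, with the group mean (line) and SD (bars); MDA is MDA-MB-231 and SUM is SUM159PT, and each panel has its own linear axis. PDK4 was high with YES1i in both lines, PLIN2 was seen almost only in MDA-MB-231, and LIPG averaged 102 CPM in treated MDA-MB-231 against 23.6 CPM in its controls, and 1.47 CPM in treated SUM159PT against 14.2 CPM in its controls.

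The promoters of these 2 genes are shown because they are the pair the set was built on, and because they differ in a motif for MiT/TFE factors, the regulators of lysosome genes. The sequences are from RefSeq (GRCh38.p14), 5′ to 3′ on the minus strand, with motif matches in capitals. The first holds the 166 bases of the PLIN2 window that lie before an annotated exon (chr9:19127577-19127742), the next 29 bases around a match further on, inside the first exon of a GENCODE transcript (chr9:19127545-19127573), and the last the 250 bases before the PDK4 start (chr7:95596517-95596766).
PLIN2 promoter: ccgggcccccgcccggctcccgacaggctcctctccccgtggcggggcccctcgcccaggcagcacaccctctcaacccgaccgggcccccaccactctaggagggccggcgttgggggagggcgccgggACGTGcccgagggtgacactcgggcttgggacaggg
PLIN2 E-box: gctgccgcgggTCACGTGctgcggaggct
PDK4 promoter: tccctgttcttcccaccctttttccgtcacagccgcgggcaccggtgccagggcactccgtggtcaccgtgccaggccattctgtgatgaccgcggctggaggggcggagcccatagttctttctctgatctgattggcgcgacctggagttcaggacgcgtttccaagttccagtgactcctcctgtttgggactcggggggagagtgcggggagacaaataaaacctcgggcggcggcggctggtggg
PLIN2 held TCACGTG, the MiT/TFE motif, 64 to 70 bases before its RefSeq start, as 3.31% of 35116 promoters did. ACGTG, the core of the hypoxia response element, lies within that match on both strands and again 116 to 120 bases before the start. None of the 5 motifs searched on both strands had its letters in the PDK4 window.

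Over the 9 genes with a RefSeq promoter, all but HILPDA, matches were few in the 250 bases before the start. ACGTG occurred in 3 of them, PLIN2, ANGPTL4 and the second start of ACADVL, against 18.5% of all promoters. TCACGTG occurred in PLIN2 alone. GTAAACA, the motif of FOXO factors, occurred in none, against 2.98% of all promoters. The direct repeat bound by PPAR with its partner RXR, with 1 base between its half-sites, and a looser form of it also occurred in none, against 0.0171% and 0.268% of all promoters. Many known PPAR sites lie in introns or further off, which these windows do not cover.

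Among the other droplet proteins, PLIN4 rose in both lines, PLIN3 fell in SUM159PT and HILPDA fell slightly in MDA-MB-231. Of the 8 genes outside the pair, 6 were higher with YES1i, 1 lower and 1 not called in MDA-MB-231, at an adjusted p under 0.05 in edgeR's quasi-likelihood test. In SUM159PT 5 were higher, 2 lower and 1 not called. Over all genes tested, 48.9% were called in MDA-MB-231 (26.8% higher, 22.1% lower) and 51.6% in SUM159PT (25.1% higher, 26.5% lower). The libraries of the groups did not overlap for 47.3% of all genes in MDA-MB-231 and for 43.3% in SUM159PT. The 8 were chosen with earlier results of these data known, so nothing is read from these counts. The median log2 of all genes in SUM159PT was 0.14 with upper quartile scaling against 0.022 with TMM, and genes higher with YES1i made up 63.4% of calls there against 48.7% with TMM. That scaling turned the direction of none of the 10 genes.

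PLIN4, a perilipin of fat and muscle that coats small, young droplets, lies at chr19:4502180-4518465 on the minus strand. SUM159PT libraries held 11.4, 9.94, 10.1 and 12.1 CPM with YES1i against 1.06, 1.10, 1.61 and 0.940 CPM with DMSO, a 9.17-fold rise (log2 3.20, SE 0.20, adjusted p = 1.24e-13). MDA-MB-231 libraries held 1.78, 2.25, 3.22 and 1.90 CPM with YES1i against 1.55, 0.763, 0.998 and 0.729 CPM with DMSO, a 2.27-fold rise (log2 1.18, SE 0.24, adjusted p = 0.000172). The groups did not overlap in either line, though MDA-MB-231 counts were 14 to 67 reads per library. The change was smaller in MDA-MB-231 than in SUM159PT by 2.02 on the log2 scale (SE 0.33, adjusted p = 2.00e-05). PLIN4 shares 32 exon bases, 0.492% of its own, with HDGFL2 on the opposite strand, whose summed count was 1941% of PLIN4's. HDGFL2 went the other way, with log2 fold changes of -0.25 (adjusted p = 0.0156) in MDA-MB-231 and -0.41 (adjusted p = 0.000274) in SUM159PT.

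PLIN3 (TIP47), a perilipin that moves between the cytosol and new droplets and is made in most cells, lies at chr19:4838341-4867768 on the minus strand. SUM159PT libraries held 127, 90.9, 118 and 125 CPM with YES1i against 159, 191, 189.7 and 178 CPM with DMSO, and the gene fell by 0.64 on the log2 scale (SE 0.084, adjusted p = 2.50e-06). Every treated SUM159PT library was below every control. MDA-MB-231 libraries held 235, 231, 262 and 254 CPM with YES1i against 228, 249.7, 232 and 252 CPM with DMSO, and these groups overlapped (log2 0.033, SE 0.083, adjusted p = 0.783). The changes differed between lines by 0.67 (SE 0.12, adjusted p = 0.000174). An antisense gene, AC027319.1, overlaps 502 exon bases of PLIN3 and had 0% of its count.

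HILPDA, a small droplet protein that binds and inhibits adipose triglyceride lipase and responds to hypoxia, lies at chr7:128455849-128458418 on the plus strand. MDA-MB-231 libraries held 8.20, 7.85, 11 and 10.5 CPM with YES1i against 12.2, 13.1, 11.2 and 13.8 CPM with DMSO (log2 -0.41, SE 0.15, adjusted p = 0.0215). The groups lay side by side, with 10.99 CPM the highest treated and 11.2 CPM the lowest control value. The call was lost without DMSO replicate 2 or 4 (adjusted p = 0.0519 and 0.0676) and without YES1i replicate 1 or 2 (adjusted p = 0.0781 and 0.0804). In SUM159PT the libraries held 12.7, 9.57, 12.1 and 14 CPM with YES1i against 8.47, 11.8, 14.3 and 13 CPM with DMSO and overlapped (log2 0.040, SE 0.14, adjusted p = 0.846). The difference between the lines' changes missed the threshold (log2 -0.45, SE 0.21, adjusted p = 0.0992).

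All 3 genes of fatty acid oxidation rose in both lines. CPT1A makes the acyl-carnitines that cross into mitochondria and is the rate-limiting step of the pathway (chr11:68754620-68844410, minus strand). MDA-MB-231 libraries held 150.2, 158, 151 and 155 CPM with YES1i against 78.3, 76.8, 73.5 and 78 CPM with DMSO, a 2-fold rise (log2 1.00, SE 0.053, adjusted p = 1.73e-15). SUM159PT libraries held 55.1, 49, 58.3 and 52.8 CPM with YES1i against 34, 36.3, 34.4 and 36.5 CPM with DMSO, a 1.53-fold rise (log2 0.61, SE 0.057, adjusted p = 3.71e-10). Treated and control libraries were apart in both lines, and the rise was larger in MDA-MB-231 by 0.39 (SE 0.078, adjusted p = 0.000222).

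ACADVL, the very long-chain acyl-CoA dehydrogenase of the first step of beta-oxidation, lies at chr17:7217125-7225273 on the plus strand. It held 323, 311, 346 and 333 CPM in MDA-MB-231 with YES1i against 201, 205, 203 and 206 CPM with DMSO (log2 0.69, SE 0.057, adjusted p = 3.00e-11). In SUM159PT it held 204, 164, 191 and 205 CPM with YES1i against 127, 137, 136 and 125 CPM with DMSO (log2 0.54, SE 0.058, adjusted p = 5.32e-09). The groups did not overlap in either line. The difference between the rises missed the threshold (log2 0.15, SE 0.081, adjusted p = 0.188). ACADVL shares 85 exon bases, 1.75% of its own, with DLG4 on the opposite strand, whose summed count was 11.6% of ACADVL's. DLG4 rose as well, by a log2 of 0.68 (adjusted p = 6.42e-08) in MDA-MB-231 and 0.83 (adjusted p = 1.57e-09) in SUM159PT, and how reads in the shared bases were counted is not given in the sources used here.

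HADHA, the subunit of the mitochondrial trifunctional protein that carries its hydratase and dehydrogenase activities, lies at chr2:26190635-26244726 on the minus strand. Its libraries held 216, 232, 229 and 235 CPM with YES1i against 169, 174, 172 and 166 CPM with DMSO in MDA-MB-231 (log2 0.42, SE 0.049, adjusted p = 2.41e-08). SUM159PT libraries held 329, 304, 349.6 and 331 CPM with YES1i against 289, 294, 273 and 300.1 CPM with DMSO (log2 0.19, SE 0.049, adjusted p = 0.00197). Both rises were small, 1.34-fold in MDA-MB-231 and 1.14-fold in SUM159PT, with no overlap of groups. The rise was larger in MDA-MB-231 by 0.24 (SE 0.069, adjusted p = 0.00912), a call that ended with upper quartile scaling (0.13, adjusted p = 0.149) and with no filter on low counts (0.21, adjusted p = 0.0831).

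**Figure D2:**
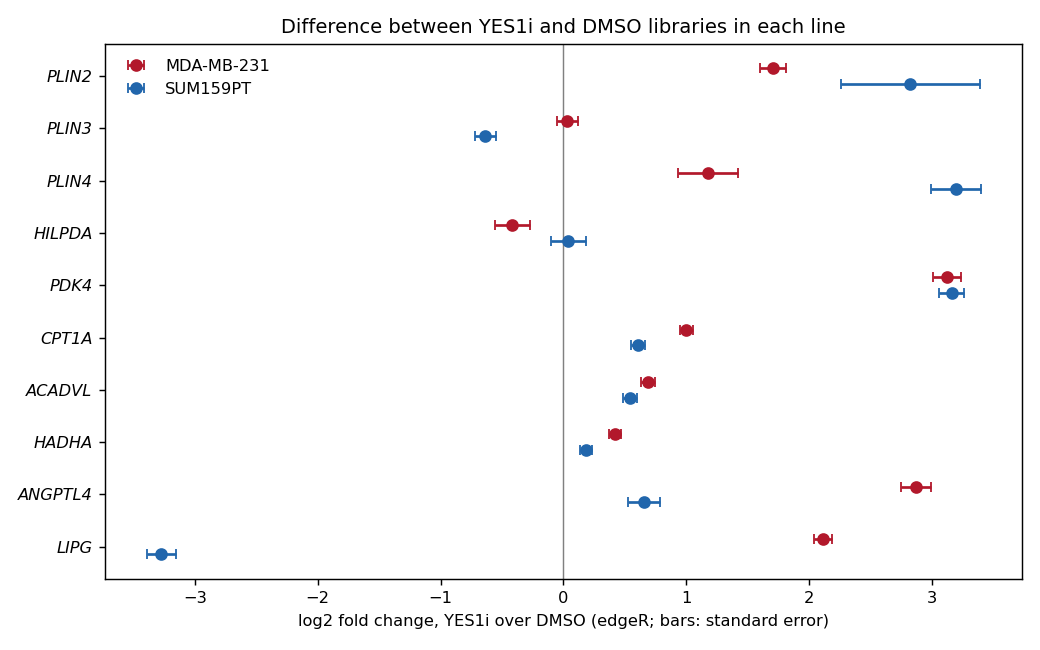
Log2 fold change of YES1i over DMSO for each gene (point) with its standard error (bar), MDA-MB-231 in red and SUM159PT in blue. The points of PDK4 nearly coincide at 3.13 in MDA-MB-231 and 3.16 in SUM159PT, whereas those of LIPG lie on opposite sides of 0, at 2.12 in MDA-MB-231 and -3.27 in SUM159PT.

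Of the 2 secreted proteins, ANGPTL4 rose in both lines, and LIPG rose in MDA-MB-231 and fell in SUM159PT. LIPG, endothelial lipase, is a secreted phospholipase that acts on high-density lipoprotein (chr18:49560699-49599182, plus strand). MDA-MB-231 libraries held 98.7, 101, 104 and 106 CPM with YES1i against 24.9, 21.8, 24.3 and 23.1 CPM with DMSO. LIPG rose 4.34-fold there (log2 2.12, SE 0.074, adjusted p = 1.71e-19). SUM159PT libraries held 1.96, 1.63, 0.995 and 1.30 CPM with YES1i against 13.9, 15.2, 14.7 and 13 CPM with DMSO. There the gene fell, to a level 9.67-fold lower than in controls (log2 -3.27, SE 0.12, adjusted p = 8.36e-19). The changes differed by 5.39 on the log2 scale (SE 0.14, adjusted p = 1.40e-22), and no treated library of either line lay near its controls.

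ANGPTL4 is a secreted inhibitor of lipoprotein lipase that PPAR receptors, hypoxia and glucocorticoids can induce (chr19:8363289-8374373, plus strand). MDA-MB-231 libraries held 35.1, 30.7, 34.9 and 33.7 CPM with YES1i against 4.31, 3.81, 5.09 and 5.06 CPM with DMSO, a 7.32-fold rise (log2 2.87, SE 0.12, adjusted p = 1.66e-17). SUM159PT libraries held 10.2, 6.23, 7.07 and 7.87 CPM with YES1i against 4.55, 5.81, 5 and 4.64 CPM with DMSO, a 1.58-fold rise (log2 0.66, SE 0.13, adjusted p = 0.000139). The SUM159PT groups did not overlap but came close, with 6.23 CPM as the lowest treated and 5.81 CPM as the highest control value. The rise was larger in MDA-MB-231 by 2.22 (SE 0.18, adjusted p = 1.17e-10).

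Of the 8 genes tested, 6 had a called difference between the lines' changes, 5 with the larger or more positive change in MDA-MB-231 (PLIN3, CPT1A, ANGPTL4, HADHA, LIPG) and 1 in SUM159PT (PLIN4). Over all genes tested 31.1% were called in this comparison, 19.1% in the direction of the 5 and 12.1% in that of PLIN4, and 61.3% of all calls were in the direction of the 5. With upper quartile scaling that share was 43.9%, and the median of all genes -0.073 against 0.036 with TMM.

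Some markers of other cell types were present and others were at or near 0. Of 10 adipocyte markers, ADIPOQ was at 0 in every library, and CFD, a serine protease of the complement system, led with 10.2 CPM with YES1i against 8.30 CPM with DMSO in MDA-MB-231. Their sum was 20.8 to 22.9 CPM with YES1i against 13.9 to 21.2 CPM with DMSO in MDA-MB-231, and 26.0 to 29.1 CPM with YES1i against 18.9 to 20.6 CPM with DMSO in SUM159PT. Of the 6 tested, 2 rose and 1 fell in MDA-MB-231 and 4 rose and 0 fell in SUM159PT, and 4 of the 10 (PLIN1, CIDEC, FABP4, LIPE) are also in the lists of lipid genes. Over all genes tested, 26.8% were called higher and 22.1% lower in MDA-MB-231, and 25.1% higher and 26.5% lower in SUM159PT. Nothing is read from such counts over so few markers, here or for the endothelial list. AQP7, a glycerol channel, changed most in MDA-MB-231, to 5.16 ± 0.751 CPM with YES1i against 0.277 ± 0.185 CPM with DMSO (log2 4.18). AQP7 passed the filter on low counts through the treated MDA-MB-231 libraries alone, so its rise is given as a description. LIPE, hormone-sensitive lipase, fell in MDA-MB-231 (log2 -0.83, adjusted p = 1.84e-05). The 8 endothelial markers summed to 15.2 to 18.7 CPM with YES1i against 7.08 to 9.59 CPM with DMSO in MDA-MB-231, and to 32.3 to 34.2 CPM with YES1i against 28.9 to 31.0 CPM with DMSO in SUM159PT, led there by KDR with YES1i and ERG with DMSO. Of the 4 tested, 3 rose and 0 fell in MDA-MB-231, PECAM1 to 8.67 ± 0.651 CPM with YES1i against 3.20 ± 1.07 CPM with DMSO (log2 1.44), VWF (log2 1.58) and KDR (log2 0.78), and 2 rose and 1 fell in SUM159PT. VWF averaged only 0.671 CPM with YES1i against 0.220 CPM with DMSO in MDA-MB-231. It passed the filter on low counts through those treated libraries alone, so its rise is given as a description. The remaining tested gene, ERG, was at 0 in all MDA-MB-231 libraries and was the one that fell in SUM159PT (log2 -0.46, adjusted p = 0.000733). CLDN5, TEK and TIE1, not tested, were near 0 and averaged lower with YES1i than with DMSO in MDA-MB-231. CDH5, not tested, averaged 0.0120 ± 0.0240 CPM with YES1i against 0.0228 ± 0.0456 CPM with DMSO in MDA-MB-231 and was at 0 in SUM159PT, while LIPG, named for that cell type, rose in MDA-MB-231 and fell in SUM159PT. Hepatocyte markers rested on SERPINA1, at 67.3 CPM with YES1i against 34.2 CPM with DMSO in MDA-MB-231, with APOA2 and TTR at 0 there, and summed to 2.76 to 4.07 CPM with YES1i against 3.26 to 3.98 CPM with DMSO in SUM159PT. Macrophage markers summed to 12.9 to 15.1 CPM with YES1i against 10.6 to 12.1 CPM with DMSO in MDA-MB-231, led by CSF1R, and to 2.93 to 3.75 CPM with YES1i against 1.18 to 1.79 CPM with DMSO in SUM159PT, led by CD14. The part of these markers in the results was not tested.

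Between the lines in DMSO, a contrast the choice of genes did not use although its libraries are the controls of those rises, PLIN2 separated the lines more than any of the other 9. Of the 10 genes 5 were higher in MDA-MB-231, 2 lower and 3 not called, where 76.6% of all genes were called (37.8% higher, 38.7% lower) and the groups of 72.4% did not overlap. These counts include PLIN2 (higher) and PDK4 (lower), picked for rises over these same controls, so nothing is read from the calls of this pair. PLIN2 had 4054 reads over the 4 MDA-MB-231 libraries against 9 over the 4 SUM159PT libraries, a log2 difference of 8.86 (SE 0.25), given as a description. PLIN2 passed the filter on low counts through the MDA-MB-231 libraries alone. CPT1A averaged 76.7 ± 2.22 CPM in MDA-MB-231 against 35.3 ± 1.31 CPM in SUM159PT (SD, n = 4 each; log2 1.12, SE 0.056, adjusted p = 4.42e-17). LIPG, ACADVL and PLIN3 were higher in MDA-MB-231 by log2 differences of 0.73, 0.64 and 0.42. PDK4 averaged 3.12 ± 0.471 CPM in MDA-MB-231 against 5.69 ± 1.09 CPM in SUM159PT (log2 -0.85, SE 0.13), again as a description. HADHA averaged 170.3 ± 3.66 CPM in MDA-MB-231 against 289 ± 11.7 CPM in SUM159PT (log2 -0.76, SE 0.049, adjusted p = 1.91e-14). Neither PDK4 nor HADHA overlapped between lines. ANGPTL4, HILPDA and PLIN4 overlapped between lines, with log2 differences of -0.11 (SE 0.14), 0.095 (SE 0.14) and -0.22 (SE 0.27).

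With YES1i all 8 genes outside the pair were called between the lines, 5 higher in MDA-MB-231 and 3 lower, where 79.5% of all genes were called (41.0% higher, 38.5% lower) and the groups of 71.8% did not overlap. ANGPTL4 averaged 33.6 ± 2.05 CPM in MDA-MB-231 against 7.85 ± 1.73 CPM in SUM159PT (log2 2.11, SE 0.12, adjusted p = 5.05e-16). PLIN4 averaged 2.29 ± 0.651 CPM in MDA-MB-231 against 10.9 ± 1.03 CPM in SUM159PT (log2 -2.24, SE 0.19, adjusted p = 7.34e-12). Both had overlapped between lines in DMSO and were apart here. LIPG averaged 102 ± 3.26 CPM in MDA-MB-231 against 1.47 ± 0.418 CPM in SUM159PT, or 69.7-fold (log2 6.12, SE 0.11, adjusted p = 2.20e-28). PDK4 averaged 27.5 ± 1.06 CPM in MDA-MB-231 against 51 ± 3.22 CPM in SUM159PT (log2 -0.89, SE 0.087), a value not tested. HILPDA overlapped between lines, and its call (log2 -0.36, adjusted p = 0.0296) ended without any 1 of 5 libraries, MDA-MB-231 YES1i replicates 1 and 2 and SUM159PT YES1i replicates 1, 3 and 4 (adjusted p = 0.0539 to 0.123), and with limma-voom (adjusted p = 0.0575).

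Over the 4 groups, the order of levels differed by gene. PLIN2 and CPT1A ran from MDA-MB-231 with YES1i through MDA-MB-231 with DMSO and SUM159PT with YES1i to SUM159PT with DMSO, with no overlap of neighbours. ACADVL had the same order, but MDA-MB-231 with DMSO and SUM159PT with YES1i overlapped (201 to 206 CPM and 164 to 205 CPM). PDK4 was highest in SUM159PT with YES1i, then in MDA-MB-231 with YES1i, SUM159PT with DMSO and MDA-MB-231 with DMSO, all apart. HADHA was highest in SUM159PT with YES1i and lowest in MDA-MB-231 with DMSO, and here both SUM159PT groups stood above both MDA-MB-231 groups. For HILPDA every pair of neighbours overlapped.

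Set against each other per length of gene model (CPM per kb), PLIN3, ACADVL and HADHA led the 10 genes in every group. In MDA-MB-231 PLIN3 led, at 87.3 CPM per kb with YES1i and 85.4 with DMSO. In SUM159PT HADHA led, at 74.9 CPM per kb with YES1i and 65.9 with DMSO. PDK4 ranked 4 in treated SUM159PT cells, at 11.3 CPM per kb, and 7 in their controls, at 1.26. PLIN2 ranked 4 in treated MDA-MB-231 cells, at 31.7 CPM per kb, and last of 10 in SUM159PT controls, at 0.0161.

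Per length, PDK4 made up a larger share of the pyruvate dehydrogenase kinase messages with YES1i than with DMSO in both lines, and PLIN3 a smaller share of the perilipins. PDK4 made up 29% ± 0.692 of the summed CPM per kb of PDK1 to PDK4 in MDA-MB-231 with YES1i against 6.01% ± 0.741 with DMSO (SD, n = 4 each). In SUM159PT it made up 63.8% ± 1.68 with YES1i against 18.9% ± 2.82 with DMSO. PDK1, the kinase linked to hypoxia, held 12.7% ± 1.17 with YES1i against 28.8% ± 1.45 with DMSO in MDA-MB-231 and 21.3% ± 1.10 with YES1i against 46% ± 1.32 with DMSO in SUM159PT. The level of PDK1 itself fell in MDA-MB-231, to 39.5 ± 3.42 CPM with YES1i against 49.1 ± 1.37 CPM with DMSO (log2 -0.32, adjusted p = 0.000126). In SUM159PT it rose, to 56 ± 2.62 CPM with YES1i against 45.5 ± 1.87 CPM with DMSO (log2 0.30, adjusted p = 0.000184), while its share was smaller. The family sum was 21 ± 0.730 CPM per kb with YES1i against 11.5 ± 0.454 with DMSO in MDA-MB-231 and 17.7 ± 1.04 with YES1i against 6.64 ± 0.404 with DMSO in SUM159PT. These shares contain PDK4 itself and are a description.

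Of the 5 perilipins, PLIN2 made up 26.5% ± 1.06 of the summed CPM per kb in MDA-MB-231 with YES1i against 10.2% ± 0.644 with DMSO. PLIN3 made up 72.8% ± 1 there with YES1i against 89.5% ± 0.724 with DMSO. In SUM159PT PLIN3 made up 93.5% ± 1.14 with YES1i against 99.4% ± 0.0753 with DMSO. The rest in SUM159PT was mainly PLIN4, at 3.85% ± 0.376 with YES1i against 0.282% ± 0.0601 with DMSO, and PLIN1, the perilipin of fat cells, at 2.33% ± 0.517 with YES1i against 0.251% ± 0.0544 with DMSO. PLIN1 rose in both lines from a low level, to 1.44 ± 0.291 CPM with YES1i against 0.206 ± 0.0359 CPM with DMSO in MDA-MB-231 (log2 2.77) and to 3.82 ± 0.736 CPM with YES1i against 0.604 ± 0.109 CPM with DMSO in SUM159PT (log2 2.66). PLIN1 passed the filter on low counts through treated libraries, so both rises are given as a description. CPT1A was the main form of carnitine palmitoyltransferase 1 in every group, with 94.6% ± 1.18 of the 3 forms with YES1i against 91% ± 0.701 with DMSO in MDA-MB-231 and 84% ± 0.651 with YES1i against 80.7% ± 1.26 with DMSO in SUM159PT.

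**Figure D3:**
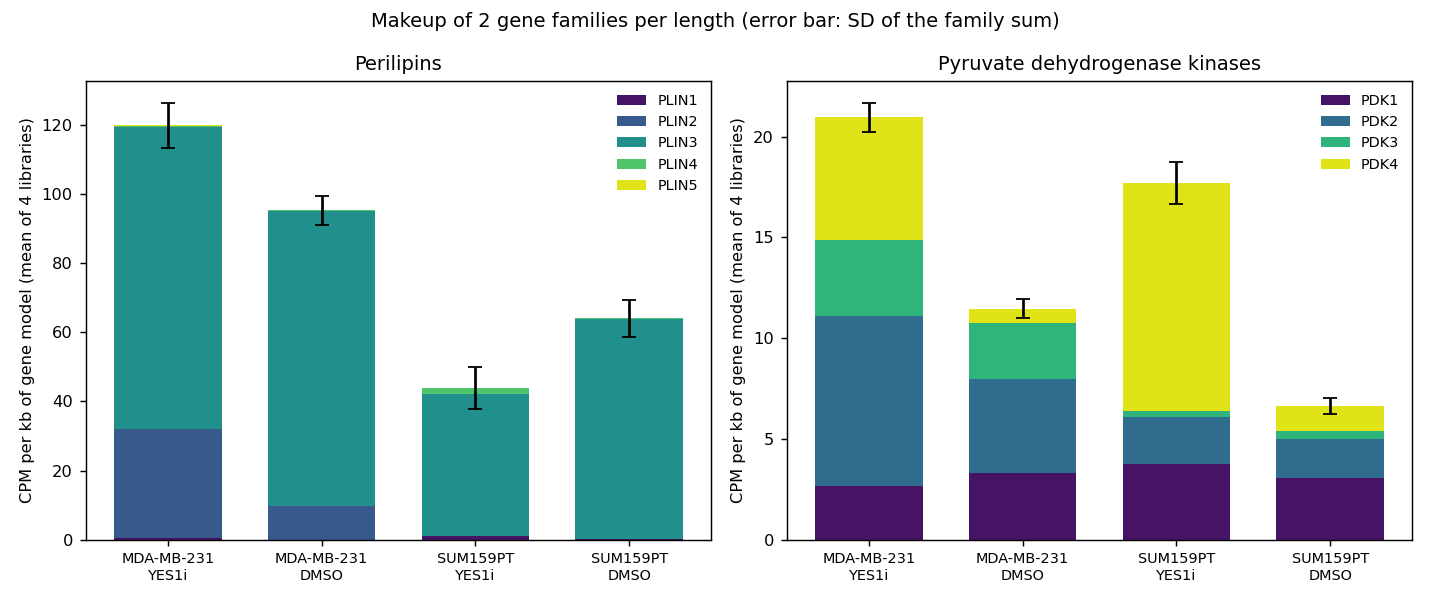
Stacked mean levels per length (CPM per kb of gene model) of the 5 perilipins (left) and the 4 pyruvate dehydrogenase kinases (right) in each group, with the SD of the family sum over 4 libraries as error bars. PLIN3 fills most of every perilipin bar, PLIN2 shows in MDA-MB-231 alone, and PDK4 is the largest part of the SUM159PT YES1i bar.

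Other lipid genes were read in 12 lists by role, from which the 10 genes were left out. Counts are of genes called over all genes tested, to be read against the shares of calls given above, and the median log2 over all genes was 0.034 in MDA-MB-231 and 0.022 in SUM159PT. Genes named as the largest rise or fall of a list are the largest among its called genes at 5 CPM or more in that line, and some called genes of lower level that changed more are named beside them. For coat and biogenesis of droplets, 5 of 12 genes rose and 1 fell in MDA-MB-231 (median 0.19), and 5 of 12 genes rose and 0 fell in SUM159PT (median 0.14). TMEM159, the partner of seipin at sites of droplet birth, rose in both lines (log2 0.66 in MDA-MB-231 and 1.06 in SUM159PT), less than PLIN1, given above, and AIFM2, a droplet-associated coenzyme Q oxidoreductase, fell in MDA-MB-231 (-0.20). For triglyceride and sterol ester synthesis, 7 of 15 genes rose and 3 fell in MDA-MB-231 and 5 of 15 genes rose and 3 fell in SUM159PT. LPIN1, a phosphatidate phosphatase, led in MDA-MB-231 (1.33) and DGAT2, of the last step of triglyceride synthesis, in SUM159PT (1.59). The largest falls were GPAT2 in MDA-MB-231 (-0.64) and AGPAT3 in SUM159PT (-0.32), both acyltransferases of the same pathway.

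In lipolysis, 7 of 13 genes rose and 4 fell in MDA-MB-231 (median 0.33), and 4 of 13 genes rose and 4 fell in SUM159PT (median -0.0046). PNPLA7, a lysophospholipase, rose most in MDA-MB-231 (2.60), and G0S2, an inhibitor of adipose triglyceride lipase, fell most (-1.25, adjusted p = 3.63e-11). In SUM159PT the largest rise at 5 CPM or more was LIPA, the lysosomal acid lipase (0.36), below those of PNPLA7 (1.84) and PNPLA4 (0.96) at lower levels, and the largest fall NCEH1, a cholesterol ester hydrolase (-0.66). For uptake, binding and activation of fatty acids, 11 of 16 genes rose and 1 fell in MDA-MB-231 (median 0.43), and 7 of 16 genes rose and 7 fell in SUM159PT (median -0.090). ACSL1, a long-chain acyl-CoA synthetase, led the rises of both lines at 5 CPM or more (1.88 in MDA-MB-231 and 0.64 in SUM159PT), and FABP5, a fatty acid binding protein, the falls (-0.79 in MDA-MB-231 and -0.92 in SUM159PT). At lower levels CD36, a fatty acid transporter, rose more in SUM159PT, to 2.15 ± 0.658 CPM with YES1i against 0.257 ± 0.127 CPM with DMSO (log2 3.04), as did FABP4 (log2 1.28, adjusted p = 0.00571). CD36 had 170 reads over the treated SUM159PT libraries against 23 over their controls. It passed the filter on low counts through those treated libraries, so its rise is given as a description.

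In the carnitine shuttle, 6 of 9 genes rose and 0 fell in MDA-MB-231 (median 0.32), and 3 of 9 genes rose and 1 fell in SUM159PT (median 0.093). MLYCD, which breaks down malonyl-CoA, the inhibitor of CPT1A, rose in both (0.85 in MDA-MB-231 and 0.57 in SUM159PT), CPT1B, the muscle form of CPT1, rose from a low level in MDA-MB-231 (0.96), and CPT2, of the inner membrane, rose in MDA-MB-231 (0.32) and fell in SUM159PT (-0.43; difference 0.75, SE 0.12, adjusted p = 2.40e-05). In mitochondrial beta-oxidation, 8 of 19 genes rose and 2 fell in MDA-MB-231 (median 0.20), and 3 of 19 genes rose and 6 fell in SUM159PT (median -0.046). ETFB, an electron carrier, led in MDA-MB-231 (0.85) and HADHB, the partner of HADHA, in SUM159PT (0.67), and HSD17B10 fell most in both (-0.57 in MDA-MB-231 and -0.52 in SUM159PT). In peroxisomal beta-oxidation, 10 of 16 genes rose and 2 fell in MDA-MB-231 (median 0.45), and 2 of 16 genes rose and 4 fell in SUM159PT (median 0.040). ECH1, a dienoyl-CoA isomerase, rose most in both (1.59 in MDA-MB-231 and 1.16 in SUM159PT), and ABCD3, a transporter of the peroxisomal membrane, fell most in SUM159PT (-0.45). The SUM159PT counts of both beta-oxidation lists turned with upper quartile scaling, to 6 higher and 4 lower of 19 in mitochondria and 7 higher and 1 lower of 16 in peroxisomes.

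Around PDK4, in the pyruvate dehydrogenase list, 4 of 13 genes rose and 4 fell in MDA-MB-231 and 3 of 13 genes rose and 6 fell in SUM159PT, with medians of -0.012 in MDA-MB-231 and -0.17 in SUM159PT. PDP1, a phosphatase that turns the complex back on, rose most in MDA-MB-231 (0.90), and PDPR, the regulatory subunit of that phosphatase, in SUM159PT (0.41). The core subunits DLD in MDA-MB-231 (-0.32) and DLAT in SUM159PT (-0.46) fell most. Of PPAR receptors, partners and classical targets, 11 of 17 genes rose and 2 fell in MDA-MB-231 (median 0.34), and 9 of 17 genes rose and 3 fell in SUM159PT (median 0.31). PPARGC1A (PGC-1 alpha), a coactivator of mitochondrial genes, averaged 22.4 ± 1.42 CPM with YES1i against 2.65 ± 0.718 CPM with DMSO in MDA-MB-231 (log2 3.07, SE 0.12, adjusted p = 3.63e-18). In SUM159PT it averaged 24.7 ± 1.55 CPM with YES1i against 2.83 ± 0.128 CPM with DMSO (log2 3.13, SE 0.12, adjusted p = 2.93e-18). The receptor PPARA, named after its values were seen, rose too (log2 0.89 in MDA-MB-231 and 0.61 in SUM159PT). The receptor PPARD was not called in MDA-MB-231 (-0.023) and fell in SUM159PT (-0.29, adjusted p = 0.000133). PPARG was not called in MDA-MB-231 (0.057) and rose in SUM159PT (0.33, adjusted p = 0.000197). UCP2, a mitochondrial carrier, fell in both lines (-1.12 in MDA-MB-231 and, at under 1 CPM, -1.75 in SUM159PT). TXNIP fell most in SUM159PT among genes at 5 CPM or more (-0.31).

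Of 11 other regulators, 8 rose and 1 fell in MDA-MB-231 (median 0.35), and 2 rose and 2 fell in SUM159PT (median 0.024), where upper quartile scaling gave 6 higher and 2 lower. FOXO1, a fasting factor known to induce PDK4, rose in both lines (1.52 in MDA-MB-231 and 0.56 in SUM159PT), and PRKAA1, a catalytic subunit of AMPK, fell in both (-0.20 in MDA-MB-231 and -0.31 in SUM159PT). HIF1A rose in MDA-MB-231 (0.52) and fell in SUM159PT (-0.90; difference 1.42, SE 0.081, adjusted p = 3.31e-14), and EPAS1 (HIF-2 alpha) led the rises in SUM159PT (0.65). Of the targets of these hypoxia factors, 5 of 16 genes rose and 6 fell in MDA-MB-231 (median -0.073), and 9 of 16 genes rose and 2 fell in SUM159PT (median 0.56). MXI1 led in MDA-MB-231 (1.36) and NDRG1 in SUM159PT (1.37), while the glucose transporter SLC2A1 fell most in MDA-MB-231 (-0.83) and PFKFB3, a glycolysis regulator, in SUM159PT (-0.33). Among secreted lipases and their partners, 4 of 9 genes rose and 2 fell in MDA-MB-231 and 4 of 9 genes rose and 3 fell in SUM159PT. LMF1, which folds lipases for export, rose most in MDA-MB-231 (1.53) and HSPG2, a heparan sulphate proteoglycan, in SUM159PT (0.60), and SDC1, a proteoglycan of the cell surface, fell most in both (-0.74 in MDA-MB-231 and -0.60 in SUM159PT), all among genes at 5 CPM or more. At lower levels LPL, lipoprotein lipase, fell in MDA-MB-231 (-0.98, adjusted p = 0.0312) and rose in SUM159PT (0.96, adjusted p = 0.0144), and LMF1 rose in SUM159PT too (0.68).

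**Figure D4:**
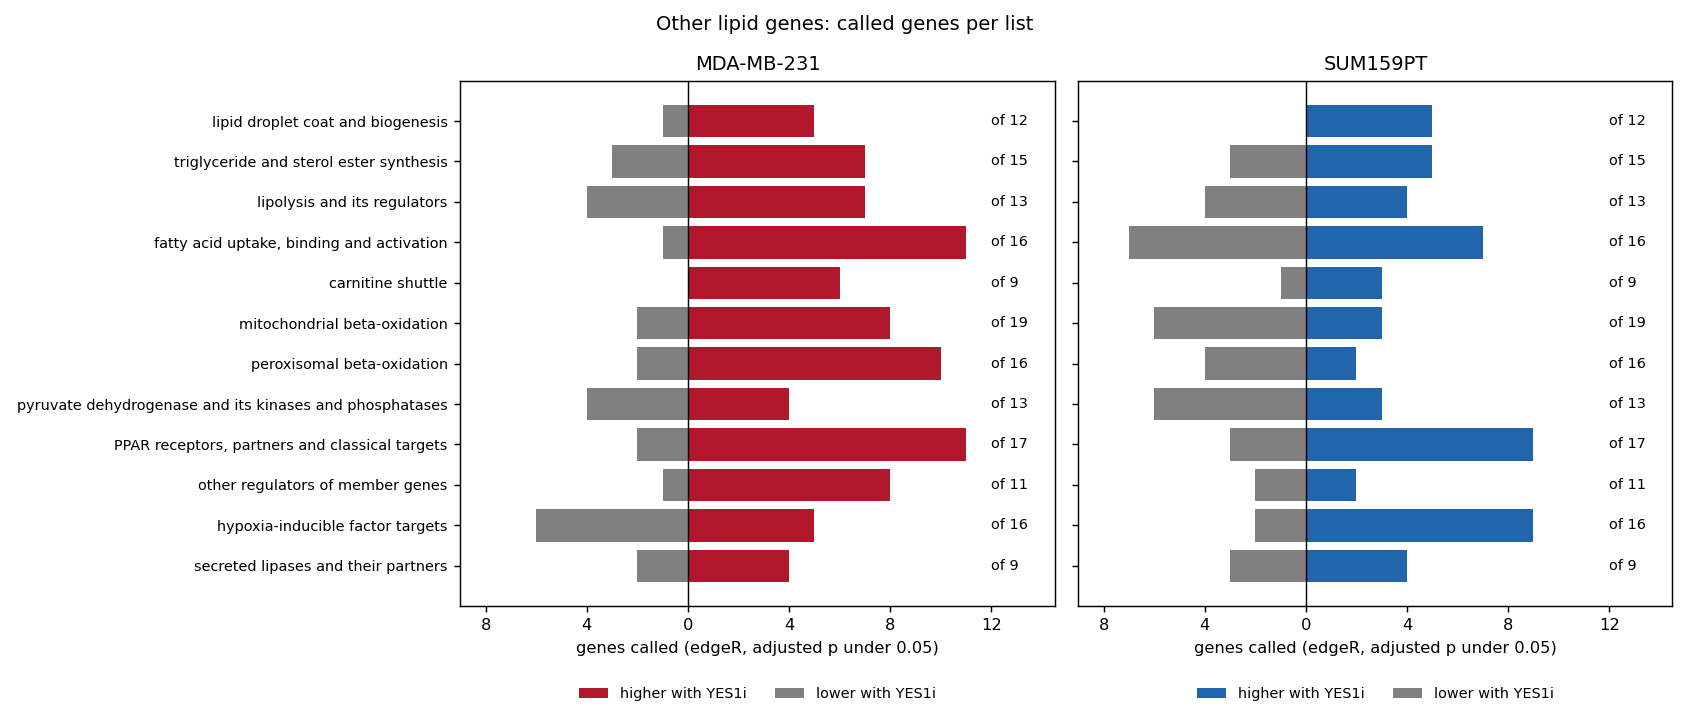
Number of genes called higher (coloured, right) and lower (grey, left) with YES1i in each list of other lipid genes, for MDA-MB-231 and SUM159PT, with the number tested at the right edge. Uptake and activation shows 11 higher and 1 lower of 16 in MDA-MB-231 beside 7 higher and 7 lower in SUM159PT.

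Genes with the most similar patterns were sought among 10877 protein-coding genes, by the root mean square difference of the 4 group means of log2 CPM after centring. For PDK4 the nearest was PPARGC1A, at 0.367, followed by BMF, a pro-apoptotic BCL2 family member (0.379), GPNMB (0.545), MLXIPL, the glucose-sensing factor ChREBP (0.612), and FBXO32, a ubiquitin ligase subunit (0.711). BMF averaged 39.3 CPM with YES1i against 6.60 CPM with DMSO in MDA-MB-231, and 56 CPM with YES1i against 11.5 CPM with DMSO in SUM159PT. For PLIN2 the nearest was PRXL2A, a peroxiredoxin-like protein (0.242), followed by ALDH2, a mitochondrial aldehyde dehydrogenase (0.481), the metalloprotease ADAM8 (0.523), GALNT3, which starts O-glycans (0.585), and the mucin MUC4 (0.590). PRXL2A averaged 146 CPM with YES1i against 56.1 CPM with DMSO in MDA-MB-231, and 0.851 CPM with YES1i against 0.130 CPM with DMSO in SUM159PT. All 5 genes near PLIN2 were at under 2 CPM in both SUM159PT groups.

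For the other 8 genes the single nearest was FAM76A for HADHA (0.0145), SOCS2 for HILPDA (0.0218), PHTF1 for PLIN3 (0.0250), LACC1 for CPT1A (0.0421), ZNF83 for ACADVL (0.0452), ASAH1 for ANGPTL4 (0.272), BHLHE41 for PLIN4 (0.501) and AREG for LIPG (0.820). LIPG had the most distant neighbour of the 8. AREG, a ligand of the EGF receptor, averaged 55.4 CPM with YES1i against 57.7 CPM with DMSO in MDA-MB-231, and so lacked the rise of LIPG. With 4 group means shared by all genes, such likeness is a description.

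The low level of PLIN2 in SUM159PT was not shared by all its neighbours. Within 1 Mb on chromosome 9, HAUS6, a subunit of the augmin complex, averaged 136 ± 13.2 CPM with YES1i against 79.1 ± 3.55 CPM with DMSO in SUM159PT. RRAGA, a Rag GTPase, averaged 38.7 ± 1.43 CPM with YES1i against 42.6 ± 2.03 CPM with DMSO there, and RPS6, a ribosomal protein gene with near-identical copies elsewhere, 1398 ± 118 CPM with YES1i against 1027 ± 87.3 CPM with DMSO. RPS6 lies on the other side of PLIN2 from these 2. ADAMTSL1 was the other gene of the window above 20 CPM in MDA-MB-231 and under 1 CPM in SUM159PT. It averaged 41.3 ± 1.09 CPM with YES1i against 39.2 ± 2.42 CPM with DMSO in MDA-MB-231, and 0.238 ± 0.211 CPM with YES1i against 0.292 ± 0.194 CPM with DMSO in SUM159PT. These genes were chosen by position after the values of PLIN2 were seen.

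**Figure D5:**
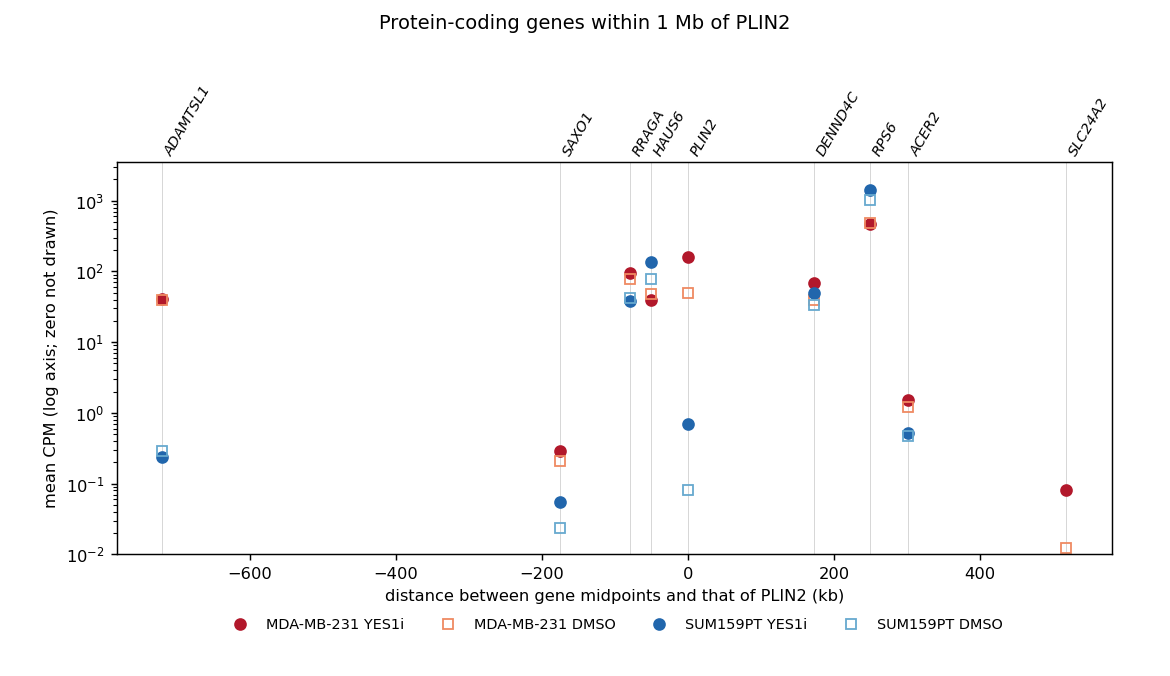
Mean CPM (log axis) of protein-coding genes within 1 Mb of PLIN2 against the distance of their midpoints from that of PLIN2 in kb, with filled circles for YES1i and open squares for DMSO, MDA-MB-231 in red and SUM159PT in blue. At PLIN2 the red points are at 161 CPM with YES1i and 49.4 CPM with DMSO, far above the blue ones, while at RRAGA, HAUS6, DENND4C and RPS6 both colours are above 30 CPM.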

How the data were processed

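Gene expression was measured in 16 libraries of poly(A) RNA. The deposited table holds the authors' raw read counts for each gene and library. HISAT2 2.0.5, featureCounts 1.5.0-p3 and hg38 are named, without role or order, per the submitters' processing notes. How strand, overlapping genes and multi-mapped reads were treated was not given in the sources used here, and the labels' protocols describe both directional and non-directional libraries. Gene positions in the table equalled GENCODE 29 for all 58735 genes, and 0 rows named no gene.

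Counts were fitted with edgeR 4.0.16 under R 4.3.3, using filterByExpr, TMM factors, robust quasi-likelihood and a mean per group over all 16 libraries. Benjamini-Hochberg adjustment ran over the 17647 genes tested, and standard errors came from the F statistic. The steps were tested on simulated data. CPM used TMM library sizes, and CPM per kb the deposited gene lengths.

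The 10 genes, the gene lists and the tests were chosen with earlier results of these data known. Named from each list were, in each line, the called genes at 5 CPM or more with the largest rise and fall, apart from 1 result that is not reported here. Also named were the genes nearest in pattern (5 each for PDK4 and PLIN2, 1 each for the others) and the marker genes at 0 or highest. Any other gene was picked with its values in view; PLIN1 and PDK1 entered as family members. Alternatives were DESeq2 1.42.0, voom from limma 3.58.1, RLE or upper quartile scaling, no low-count filter, a mean count of 10, a fit of the 8 libraries compared, a replicate block, an adjusted p under 0.01 and leaving out each library. A planned comparison of the perilipin proteins was not made.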

Additional observations from a re-analysis of the deposited data

Results flagged for a closer look

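For 6 genes the YES1i change differed between the lines in the test of the difference itself, MDA-MB-231 change minus SUM159PT change on the log2 scale. The difference was 5.39 for LIPG, which rose in MDA-MB-231 and fell in SUM159PT. ANGPTL4 rose in both lines, more so in MDA-MB-231, with a difference of 2.22. PLIN4 rose in both lines, more so in SUM159PT, with a difference of -2.02. For PLIN3 the difference was 0.67, with a fall in SUM159PT and no called change in MDA-MB-231. CPT1A and HADHA rose in both lines, with differences of 0.39 and 0.24. Over all genes tested 31.1% had a called difference. By Dixon's criterion no library stood apart from the other 3 of its group in any of the 40 sets of 4 values of these genes. Over all genes, some SUM159PT libraries differed more from their group, by chi-square per degree of freedom of paired counts. YES1i replicate 2 gave 24.4, 12.55 and 21.7 against the others, which gave 4.04 to 6.75 among themselves. DMSO replicate 1 gave 16.9, 17.7 and 7.56, and the others 3.63 to 7.55. MDA-MB-231 pairs gave 2.38 to 7.93. The part of this spread in the results was not tested.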

How the results depend on the processing

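Of 800 values of the 10 genes with 1 library left out, 784 kept their direction and, where tested, their side of the threshold, and so did 431 of 439 under the other settings. For the other named genes all 736 and 414 did. No count of called genes or members moved by over 1.5 times. HILPDA accounted for most exceptions. Its difference between the lines' changes passed the threshold with no filter on low counts (-0.487, adjusted p = 0.0208), with upper quartile scaling (-0.565, adjusted p = 0.0336) and without SUM159PT DMSO replicate 3 or SUM159PT YES1i replicate 2 (adjusted p = 0.0348 and 0.0274). With 1 library left out, its change in SUM159PT ran from -0.115 (without SUM159PT DMSO replicate 1) to 0.16, with -0.0418 without SUM159PT YES1i replicate 4, and its DMSO difference between lines from -0.0581 (without SUM159PT DMSO replicate 1) to 0.222. PLIN3 in MDA-MB-231 turned to -0.00851 when only the 8 libraries compared were fitted. The PDK4 difference between the lines' changes ran from -0.139 to 0.0459 (without SUM159PT DMSO replicate 3), with 0.0245 without MDA-MB-231 DMSO replicate 4. The cause was not tested, and none of the values that turned was called.

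A replicate block called 8049 genes in MDA-MB-231, 8416 in SUM159PT, 4641 in the difference, 13883 between lines with YES1i and 13359 with DMSO, against 8629, 9105, 5489, 14033 and 13514 without it, and changed no call of the 8 genes or, in DMSO, of the 10. With upper quartile scaling the median of all genes between lines with YES1i was -0.091, against 0.020 with TMM. Deviations of same-numbered libraries correlated at -0.083 to 0.014 in MDA-MB-231 and at -0.296 to -0.021 in SUM159PT. Of the YES1i libraries 0 of 8 correlated best with their own number, so no pairing by number was seen. Differently numbered SUM159PT libraries ran from -0.308 to 0.359, the highest for YES1i replicate 2 with DMSO replicate 1. What lies behind these values was not tested. Depth limits PLIN2 in SUM159PT and PLIN4 in MDA-MB-231, with at most 26 and 67 reads per library. Technical replicates limit all p-values, and medium goes with line.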

Other observations

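HADHA and HADHB, the subunits of the mitochondrial trifunctional protein, lie head to head on chromosome 2 and did not move in step in SUM159PT. HADHB rose in both lines (log2 0.40, adjusted p = 2.74e-07 in MDA-MB-231, and 0.67, adjusted p = 1.14e-11 in SUM159PT). The ratio of HADHA to HADHB per length was 2.09 ± 0.0506 with YES1i against 2.06 ± 0.0580 with DMSO in MDA-MB-231 (SD, n = 4 each). These groups overlapped, at 2.02 to 2.14 with YES1i and 2.01 to 2.13 with DMSO. In SUM159PT the ratio was 1.81 ± 0.0418 with YES1i against 2.55 ± 0.181 with DMSO. All 4 treated SUM159PT libraries were below all 4 controls. The ratio was chosen after its values were seen, so it is given as a description with no test. The 2 genes share no exon bases.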
